A study of Drosophila melanogaster with 2 samples.

Results

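The genes described here encode the proteins of the mitochondrial ribosome. They were taken as the protein-coding genes of the Ensembl BDGP6 annotation whose symbol starts with mRpL (large subunit) or mRpS (small subunit), which gave 73 of 13968 protein-coding genes, 47 for the large and 26 for the small subunit. Chromatin immunoprecipitation sequencing had been carried out on whole Drosophila melanogaster embryos aged 0 to 24 h from a transgenic strain with an Rfx-eGFP insertion, in 2 biological replicates that form a single group, so the series holds no contrast of conditions and no test over samples was possible. Chromatin was sonicated to 200 to 800 bp, and the fusion protein was precipitated with an anti-GFP antibody, per the labels, although their antibody field reads Rfx. Whole embryos of a wide age range were pooled, so a peak may come from any cell type or stage, and the tagged protein is a transgene product.

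Mitochondria translate the few proteins that their own genome encodes, which are subunits of the respiratory chain and the ATP synthase, on a ribosome of their own. All of its proteins are encoded in the nucleus, made in the cytosol and imported, so their genes need to be expressed in nearly every cell. The small subunit decodes the messenger RNA and the large subunit forms the peptide bond. Rfx, the RFX-type transcription factor of the fly, is known for switching on genes for cilia through a palindromic site, the X-box. The question asked of the data was how often, how strongly and where Rfx-eGFP peaks lay at the starts of these genes, beside all other protein-coding genes.

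The DNA under the strongest peaks shows what the immunoprecipitated sites look like. The summit is the base at which the authors placed the top of a peak, and the 100 bases around the summits of mRpS23 (chr2L:13835412-13835511), mRpS10 (chr3R:15229483-15229582), mRpL20 (chr3L:13018085-13018184) and mRpS18B (chr2L:20097244-20097343) are printed 5′ to 3′ on the plus strand of dm6. The first 3 belong to the strongest peaks, and mRpS18B is shown as the strongest of the printed members with a DREF site, TATCGATA, the sequence bound by DNA replication-related element factor. For contrast, the 150 bases before the annotated starts of mRpL14 (chrX:2344650-2344799, minus strand) and mRpS35 (chr3L:2780749-2780898, plus strand) are given, in the direction of each gene. Both genes lacked a thresholded peak. Capitals mark the DREF site in mRpS18B, an E-box, CAGCTG, in mRpL14 and mRpS35, and the BEAF-32 core, CGATA, in mRpL14. DREF sites contain the BEAF-32 core, so the capitals in mRpS18B cover both.
mRpS23: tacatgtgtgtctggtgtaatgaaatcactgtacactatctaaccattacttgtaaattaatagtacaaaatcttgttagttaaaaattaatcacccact
mRpS10: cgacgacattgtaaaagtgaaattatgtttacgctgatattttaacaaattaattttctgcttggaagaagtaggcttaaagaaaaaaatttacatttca
mRpL20: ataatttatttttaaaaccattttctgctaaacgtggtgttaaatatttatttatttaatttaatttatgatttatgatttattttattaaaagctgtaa
mRpS18B: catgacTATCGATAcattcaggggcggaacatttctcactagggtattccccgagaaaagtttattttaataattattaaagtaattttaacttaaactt
mRpL14: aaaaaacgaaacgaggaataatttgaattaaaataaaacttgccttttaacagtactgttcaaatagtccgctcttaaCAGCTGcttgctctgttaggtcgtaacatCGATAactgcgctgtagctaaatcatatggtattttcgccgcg
mRpS35: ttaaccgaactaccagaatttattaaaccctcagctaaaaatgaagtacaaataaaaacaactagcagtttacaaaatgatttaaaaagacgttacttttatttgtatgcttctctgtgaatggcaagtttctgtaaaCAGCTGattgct
The printed windows at mRpS23, mRpS10 and mRpL20, which reach 50 bp to each side of the summit, hold none of the 11 motifs searched and are rich in A and T. Within 100 bp of the summit, mRpS10 and mRpL20 each have a BEAF-32 core and mRpS23 has no match. At that distance the strongest gene, mRpL41, has a BEAF-32 core and a single arm of the X-box, GTTGCC, and mRpL23 has GAGAG and TATAAA; their windows are not printed. Within 100 bp of the summit the GC content was 35.8% at mRpS23, 29.9% at mRpS10 and 26.4% at mRpL20. Over the 48 members with a peak the median GC content was 36.6%, against 38.8% at the 3638 TSS peaks of other genes only.

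Rfx-eGFP peaks lay at the starts of 48 of the 73 genes. In the main set, the larger of the authors' thresholded sets from both replicates, with 9250 peaks, 65.8% of the genes had a summit within 500 bp of an annotated transcription start site (TSS; 95% Wilson interval 54.3 to 75.6). The background was lower, since 35.3% of the 13895 other protein-coding genes had such a summit. Of the large subunit genes 29 of 47 had a peak (61.7%, interval 47.4 to 74.2), and of the small subunit genes 19 of 26 (73.1%, 53.9 to 86.3). These intervals overlap over most of their length. All intervals cover counting error over genes only.

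Each replicate gave the same order between the genes and the background. The authors' thresholded set of replicate 1 alone held a TSS peak at 41 of the 73 genes (56.2%), where 28% of other genes were called. That of replicate 2 alone held one at 36 (49.3%), where 29.5% were called. The share in the replicates' own sets was 52.7% ± 4.84 (SD, n = 2) for the mitochondrial ribosomal protein genes and 28.7% ± 1.02 for the other genes, a difference several times the spread between the replicates. In the ranked lists, which hold all candidate peaks before the threshold, 62 of the genes had a summit within 500 bp in replicate 1 (84.9%, beside 65.2% of other genes) and 69 in replicate 2 (94.5%, beside 72.9%). These lists held 81130 and 86234 peaks, and most genes of any kind had a summit in them.

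**Figure D1:**
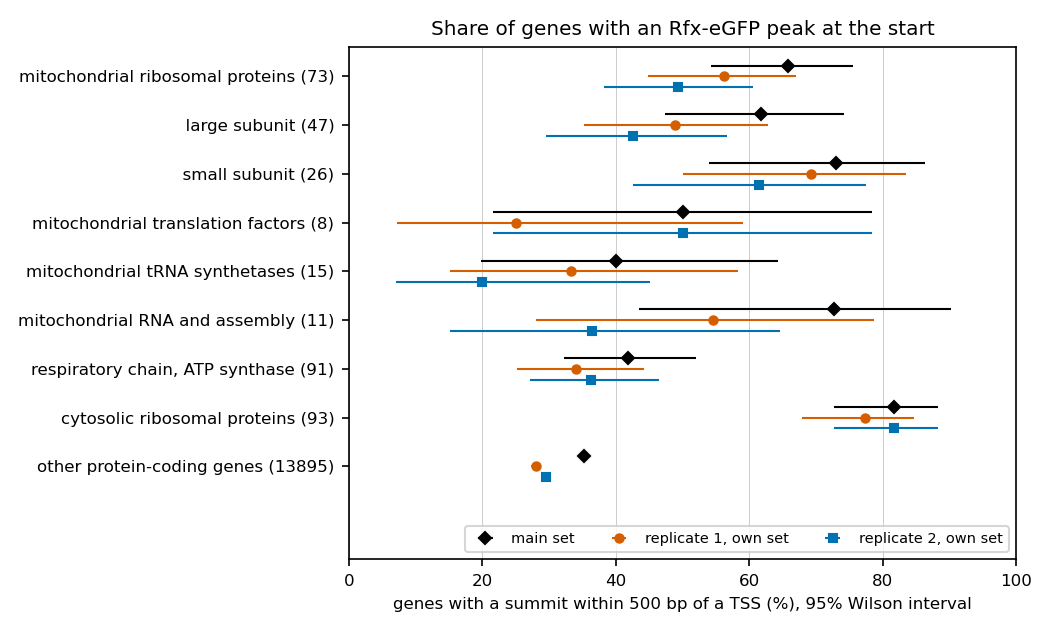
Share of genes with a summit within 500 bp of a TSS (percent, horizontal axis) for the mitochondrial ribosomal protein genes, their subunits, 5 related gene lists and the other protein-coding genes, with the number of genes in brackets. Symbols stand for the main set and each replicate's own set and bars for 95% Wilson intervals; the mitochondrial ribosomal protein genes lie at 65.8%, 56.2% and 49.3%, the other genes at 35.3%, 28.0% and 29.5%.

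In the thresholded sets, the peaks at these genes were not stronger than those of other genes as a class. Each peak has a signal, the peak caller's enrichment value. Its scale is not stated, and only signals of the same list were set against each other. The median main-set signal was 170.2 over the 48 genes with a peak and 169.9 over the 4901 other genes with a peak. Ranked among every protein-coding gene that had a TSS peak, the median percentile was 50.1 in the main set, 41.7 in the set of replicate 1 and 48.6 in that of replicate 2. Before the threshold the genes ranked higher. Among genes with a summit in the ranked lists, their median percentile was 66.8 in replicate 1 and 60.3 in replicate 2. That of other genes was 49.8 and 49.9. The 48 signals ran from 66.2 to 4668, with 11 genes below 100, 18 from 100 to 200, 12 from 200 to 500, 3 from 500 to 2000 and 4 above 2000. The 4 at the top made up 5.48% of the 73 genes, whereas 38 other genes exceeded 2000, or 0.273% of all others.

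Among large subunit genes, mRpL41 (FBgn0034001) had the strongest peak, on 2R from 15217570 to 15217998, with its summit 133 bp upstream of the TSS. Its signal was 4668 in the main set, 2892 in replicate 1 and 1785 in replicate 2, which ranked it 3rd of all protein-coding genes in the main set. The peak of mRpL23 (FBgn0035335), on 3L from 2373438 to 2373789, had 2866 in the main set, 1894 in replicate 1 and 977 in replicate 2. Its summit lay in the 5′ UTR, 81 bp downstream of the nearest of the gene's 3 annotated TSSs. Both peaks stood at the extreme of each replicate, at percentile 99.97 ± 0.00204 (SD, n = 2) for mRpL41 and 99.8 ± 0.0710 for mRpL23 among genes with a summit in the ranked lists.

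Large subunit genes of the next rank were several times weaker. For mRpL20 the signals were 1012 in the main set, 631 in replicate 1 and 373 in replicate 2. Those of mRpL24 were 876, 525 and 348 in the same order, and those of mRpL53 were 392, 240 and 146. Within every list these 3 genes fell in the order mRpL20, mRpL24 and mRpL53.

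A less even picture came from mRpL34 and mRpL32, whose main-set signals were 303 and 271. The replicates differed for mRpL34, with 237 in replicate 1 and 69.2 in replicate 2 and a percentile of 81.2 ± 12.6. For mRpL32, replicate 1 had no summit within 500 bp even in its ranked list, and replicate 2 had 101.3. The same held for mRpL4, with 268 in the main set, none in replicate 1 and 97.8 in replicate 2. Both peaks were also in the conservative set, so of all the lists used only those of replicate 1 had no summit within 500 bp of these TSSs. Whether a peak of replicate 1 with a summit farther away covered these sites was not examined.

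Small subunit genes held the other 2 peaks above 2000. The peak of mRpS23 (FBgn0260407), on 2L from 13835297 to 13835637, had signals of 3206 in the main set, 1823 in replicate 1 and 1406 in replicate 2. That of mRpS10 (FBgn0038307), on 3R from 15229355 to 15229706, had 3074, 1843 and 1235 in the same order. They ranked 11th and 17th of all genes in the main set, at percentiles 99.9 ± 0.0995 and 99.8 ± 0.0494 (SD, n = 2) of the ranked lists, so their order was not the same in both replicates. For mRpS2 the values were 821, 525 and 300. Weaker but present in both replicates were mRpS18B, with 320, 184 and 133, and mRpS6, with 295, 169 and 123. The 3 related proteins mRpS18A, mRpS18B and mRpS18C are encoded by separate genes, and all 3 had a main-set peak, at 87.0, 320 and 93.4.

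**Figure D2:**
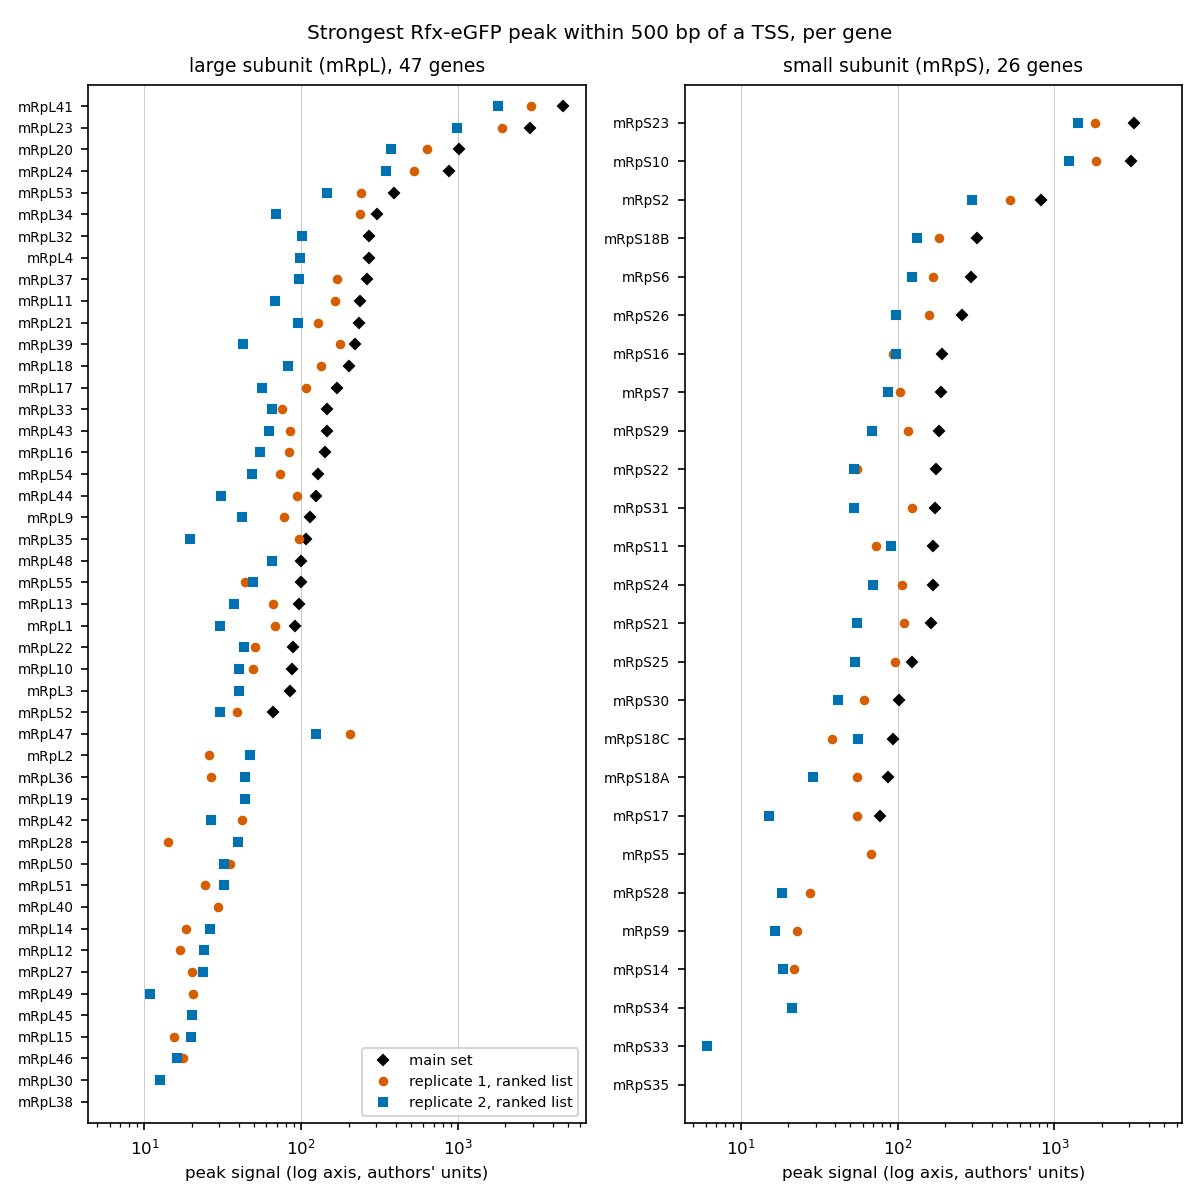
Signal of the strongest peak within 500 bp of a TSS for each of the 47 large subunit (left) and 26 small subunit genes (right), on a log axis. The units are the authors', on a scale that is not stated, so signals of different lists are not compared. Diamonds stand for the main set, circles and squares for the ranked lists of replicates 1 and 2; mRpL41, mRpL23, mRpS23 and mRpS10 lie above 2000 in the main set, mRpL47 has summits in the ranked lists without a main-set peak, and mRpL38 and mRpS35 have no symbol.

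The replicates called overlapping but not identical sets of these genes. Of the 47 genes with a TSS peak in either replicate's own set, 30 had one in both, or 63.8%; of the 4782 other genes in either set 67.1% were in both. Called in replicate 1 only were 11 genes, mRpL1, mRpL9, mRpL13, mRpL22, mRpL35, mRpL43, mRpL44, mRpS5, mRpS17, mRpS18A and mRpS30. Called in replicate 2 only were 6 genes, mRpL4, mRpL10, mRpL32, mRpL48, mRpS18C and mRpS22. Other genes leaned the opposite way, with 3894 called in replicate 1, 4095 in replicate 2 and 3207 in both, so more were called in replicate 2 only. The genes mRpL3 and mRpL52 had a main-set peak but none in either replicate's own set. Such cases were not counted for other genes. Signals of the 60 genes found in the ranked list of each replicate had a Spearman rho of 0.850 between the replicates, and those of 7880 other genes had 0.840. Genes are not independent replicates, and the value is a description.

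No main-set peak lay at 25 of the genes. In the large subunit these were mRpL2, a core protein near the site of peptide bond formation, mRpL12, whose bacterial counterpart forms the stalk that recruits translation factors, and mRpL14, mRpL15, mRpL19, mRpL27, mRpL28, mRpL30, mRpL36, mRpL38, mRpL40, mRpL42, mRpL45, mRpL46, mRpL47, mRpL49, mRpL50 and mRpL51. In the small subunit they were mRpS5, mRpS9, mRpS14, mRpS28, mRpS33, mRpS34 and mRpS35. Most had a weak candidate summit nearby. In the ranked list of replicate 1, 18 of the 25 had one, with signals from 14.0 to 203 and a median of 23.5, whereas the 44 genes with both a main-set peak and a summit in that list had a median of 105.03. In replicate 2, 21 of the 25 had one, with a median of 23.8, against 64.6 for the 48 genes with a main-set peak. The ranges of both classes overlapped. Of all other genes, with or without a main-set peak, 65.2% had a summit in the ranked list of replicate 1 and 72.9% in that of replicate 2. The share among other genes without a main-set peak was not computed. Only mRpL38 and mRpS35 had no summit within 500 bp in either ranked list.

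The unpeaked genes held 2 exceptions. The first was mRpL47 (FBgn0014023), with signals of 203 and 124 in the ranked lists of replicates 1 and 2, at 88 and 89 bp upstream of the TSS. Its percentile there was 87.4 ± 0.301 (SD, n = 2), beside 87.1 ± 2.05 for mRpS18B, which has a main-set peak. The ranked lists gave it the top score of 1000, although the lowest score in the thresholded sets was 830, yet no thresholded set held it. By a looser count, a ranked score of at least 830 with no TSS peak in the own set of the same replicate was found at 77 other genes in replicate 1 and at 90 in replicate 2. No source used here says what else decided membership. The second was mRpS5, which was called in the own set of replicate 1 with a signal of 67.6 and had no summit in the ranked list of replicate 2.

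The summits lay upstream of the genes. Of the 48, 45 were upstream of the TSS (93.8%, interval 83.2 to 97.9) and 3 in the 5′ UTR, with none in an intron. Among other genes with a peak 83.5% of summits were upstream and 10.5% of them lay in an intron. The median position was 116.5 bp upstream, with extremes at 458 bp upstream and 81 bp downstream, and 85 bp upstream for other genes.

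**Figure D3:**
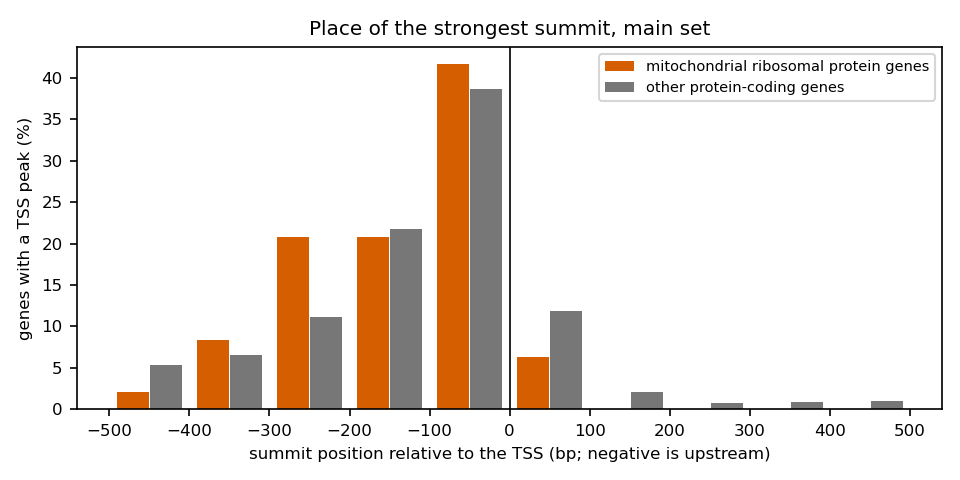
Position of the strongest main-set summit relative to the TSS in bins of 100 bp (horizontal axis, negative is upstream) as percent of the genes with a peak, for the 48 mitochondrial ribosomal protein genes and the 4901 other genes. Of the former 41.7% lie in the 100 bp before the TSS and none lie beyond 100 bp downstream.

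Many of the peaks also lay close to the start of another protein-coding gene. Another protein-coding gene's TSS, on either strand, lay within 500 bp of the summit at 41 of the 48 genes (85.4%, interval 72.8 to 92.8), against 50.8% of other genes with a peak. The mitochondrial ribosomal protein gene itself had the nearest TSS, ties included, at 23 of the 48 (47.9%), against 75.9%. No peak was shared by 2 of the mitochondrial ribosomal protein genes, and the 48 genes had 48 distinct peaks. A peak between 2 starts cannot be assigned to either gene from its position.

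At 25 genes the summit was nearer to another gene's start, among them 5 of the 7 strongest. The mRpS23 summit lay 390 bp from its own TSS but 102 bp from that of CenG1A. For mRpS10 the distances were 132 bp and, to Art3, an arginine methyltransferase gene, 125 bp. For mRpL20 they were 268 bp and, to Icmt, 131 bp. These 3 summits, like those of mRpL24, mRpS2 and mRpL34 below, lay upstream of both genes of each pair, in the DNA between the paired starts. For mRpL24 they were 144 bp and, to betaggt-I, which encodes a subunit of a geranylgeranyl transferase, 74 bp. For mRpS2 they were 169 bp and, to Mon1, 53 bp. For mRpL34 they were 245 bp and, to Dg, the dystroglycan gene, 139 bp. In contrast, mRpL41 was the nearest gene to its own summit and had no other TSS within 500 bp of it. Counting each summit for its nearest TSS only left 26 of the 73 genes with a peak (35.6%, interval 25.6 to 47.1), against 27.8% of other genes, a difference of 7.85 percentage points in place of 30.5. Under this count the share of other genes lay inside the interval.

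The arrangement of the genes themselves was then described, a choice made after these positions were seen. A head-to-head neighbour, a protein-coding gene on the other strand whose start lies at most 1000 bp upstream, was present at 58 of the 73 genes (79.5%) and at 34.9% of other genes. With such a neighbour, 45 of 58 genes had a peak (77.6%, interval 65.3 to 86.4), against 56.7% of other genes so arranged. Without one, 3 of 15 had a peak (20%, 7.05 to 45.2), against 23.8% of other genes. The 3 were mRpL9, mRpL10 and mRpL13, at signals of 113, 86.7 and 96.8, all below the median. Without a head-to-head neighbour the share of other genes thus lay inside the interval, and with one it lay below it.

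Genes with a peak had wider gaps between the paired starts than genes without one. The median gap was 297 bp at the 45 genes with a peak and 64 bp at the 13 without, whereas among other head-to-head genes it was 295 and 316 bp. At gaps of 201 to 500 bp, 28 of 31 genes had a peak (90.3%, interval 75.1 to 96.7), beside 64.3% of other genes. At gaps of 1 to 100 bp 9 of 18 had one (50%, 29.0 to 71.0), beside 58.4%. The replicates' own sets showed the same order, with 83.9% against 33.3% in replicate 1 and 71.0% against 38.9% in replicate 2 for the wider and the narrower class. The intervals of these shares were apart in replicate 1 (67.4 to 92.9 and 16.3 to 56.3). They overlapped in replicate 2 (53.4 to 83.9 and 20.3 to 61.4). Other genes had this order too, less marked: 58.5% and 47.7% (replicate 1), 52.8% and 49.7% (replicate 2). Of the 13 unpeaked genes with a neighbour 9 were in the narrowest class, namely mRpL2, mRpL15, mRpL27, mRpL28, mRpL46, mRpL47, mRpL51, mRpS14 and mRpS28. The strongest peaks include an exception, since mRpL23 starts 24 bp from CG9004.

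**Figure D4:**
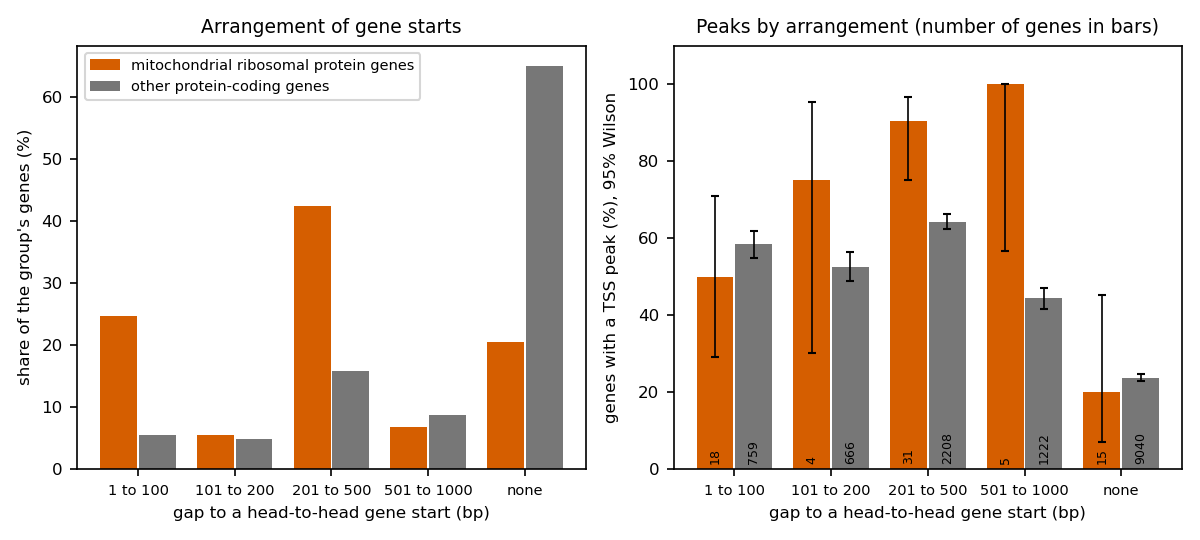
Left, percent of the mitochondrial ribosomal protein genes and of other protein-coding genes by the gap in bp to a head-to-head gene start, or with none within 1000 bp; right, percent of each class with a main-set TSS peak, with 95% Wilson intervals and the number of genes in the bars. The share with a peak is 90.3% at gaps of 201 to 500 bp and 20% with no such neighbour for the mitochondrial ribosomal protein genes, and 64.3% and 23.8% for the others.

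No match to the strict X-box was found at these sites. A strict X-box, the palindrome with a spacer of 0 to 3 bases, occurred within 100 bp of none of the 48 summits, which allows a share of up to 7.41% by the Wilson interval, and of 0.852% of the 3638 TSS peaks of other genes only. A single arm of the X-box, GTTGCC on either strand, occurred at 14.6% and 15.8%. In the 300 bases from 250 before to 50 after the start, the strict X-box was in 0 of 73 promoters and in 0.888% of all protein-coding genes. The single arm was in 27.4% (interval 18.5 to 38.6) and 17.8%. It was in 12 of the 48 promoters of genes with a peak (25%) and 8 of the 25 without (32%). For other genes with and without a peak the shares were 20.5% and 16.3%. The nuclear respiratory gene element and the palindrome of erect wing, the fly counterpart of the human factor NRF-1, were likewise in 0 of 73, and they were in 0.873% and 0.723% of all protein-coding genes. At such low background shares a count of 0 in 73 does not set these promoters apart. Such matches are descriptions of letters and show neither binding nor its absence.

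The E-box CAGCTG, a site for helix-loop-helix factors, was frequent in these promoters. It lay in 40 of 73 (54.8%, interval 43.4 to 65.7), against 17.4% of other genes, 21.5% of other head-to-head genes, 23.1% of respiratory chain and ATP synthase genes and 9.68% of cytosolic ribosomal protein genes. It was in 25 of the 48 promoters of genes with a peak (52.1%) and 15 of the 25 without (60%), with overlapping intervals. The matches clustered at the start itself, with a median position of 5 bp and quartiles of -31 and 19 bp from the TSS, whereas in other genes the median was -49 bp. Within 100 bp of the summits, a shorter window, the E-box lay at 15 of 48 (31.3%), against 14.6% at TSS peaks of other genes.

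The DREF site TATCGATA, found in many housekeeping promoters of the fly, lay in 13 of the 48 promoters with a peak (27.1%, interval 16.6 to 41.0) and in 2 of the 25 without (8%, 2.22 to 24.97), with overlapping intervals, and in 15.1% and 6.15% of other genes with and without a peak. Within 100 bp of the summits it occurred at 16.7% and at 10.9% of TSS peaks of other genes, and the BEAF-32 core CGATA at 54.2% and 44.7%. Motif 1, here GGTCACAC, was at 8.33% and 6.57%. Of the 12 strongest genes, mRpS18B had a DREF site, 40.5 bp from its summit, and none had Motif 1; at these shares such counts do not set the strongest genes apart.

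**Figure D5:**
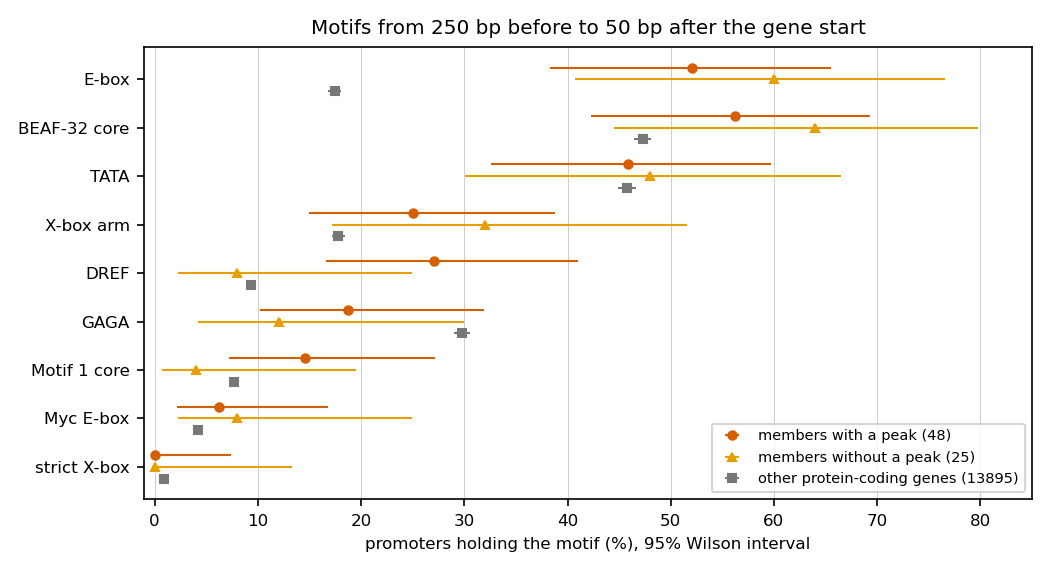
Percent of promoters, from 250 bp before to 50 bp after the start, that hold each motif on either strand, for the 48 genes with a main-set peak, the 25 without and the 13895 other protein-coding genes, with 95% Wilson intervals. The E-box lies at 52.1% and 60% beside 17.4% in other genes, DREF at 27.1% and 8% beside 9.30%, and the strict X-box at 0 in both classes; the X-box arm is the sequence GTTGCC.

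Other genes of the mitochondrial translation system fall in small lists, whose shares have wide intervals and stand beside the 35.3% of other genes. Of the 2 mitochondrial ribosomal protein genes with names of another form, tko, which encodes protein S12, had a main-set peak at 107, and bonsai, which encodes protein S15, had none. Of 8 translation factor genes 4 had one (50%, interval 21.5 to 78.5), led by mEFTs at 124, mRF1 at 106 and mIF2 at 100.8, and mEFTu1, mEFTu2 and mIF3 were among those without. The factors with a peak include the release factor mRF1 and the initiation factor mIF2, and both listed genes for the elongation factor Tu lack one. Of 15 mitochondrial aminoacyl-tRNA synthetase genes 6 had a peak (40%, 19.8 to 64.3), led by ArgRS-m at 303, LeuRS-m at 181 and AspRS-m at 142, and AlaRS-m, AsnRS-m and GluRS-m had none. Of 11 genes for mitochondrial RNA and ribosome assembly 8 had one (72.7%, 43.4 to 90.3). There PNPase, an RNA-degrading enzyme, stood out with 3486, followed by the methyltransferase Mrm2 at 413 and the helicase Suv3 at 154, and PolrMT, TFAM and mTTF had none.

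The larger comparison groups were the cytosolic ribosome and the respiratory complexes. Cytosolic ribosomal protein genes had a peak at 76 of 93 (81.7%, interval 72.7 to 88.3), with a median signal of 340, led by RpL7 at 1564, RpS27 at 1496 and RpL23A at 1118. RpL10, RpL10Aa and RpL13A were among the 17 without a main-set peak. Of these, RpL13A had signals of 270 and 341 in the ranked lists of replicates 1 and 2. RpL10 had a peak of 166 in the own set of replicate 1, and RpL10Aa had a ranked summit in replicate 2 only, at 21.9. Genes of the respiratory chain and ATP synthase had a main-set peak at 38 of 91 (41.8%, 32.2 to 52.0), led by ND-ASHI at 1066, ND-MWFE at 726 and blw at 725, and ATPsynC, ATPsynCF6L and ATPsynG were among those without. Of these, ATPsynC had signals of 109 and 83.0 in the ranked lists of replicates 1 and 2. ATPsynCF6L had 27.9 in replicate 1 only and ATPsynG 18.3 in replicate 2 only. The respiratory group was taken by symbol. It includes genes whose symbol adds an L to that of another, such as COX4L, ND-24L and SdhAL, and none of those had a main-set peak. The share without such genes was not computed. The share of the mitochondrial ribosomal protein genes, 65.8% (54.3 to 75.6), lay in value between those of the cytosolic and the respiratory group. Its interval overlaps that of the cytosolic group, and the interval of the respiratory group, as listed, holds the 35.3% of other genes. The top signals of the mitochondrial ribosomal protein genes, 2866 to 4668, had no counterpart in those groups, whose highest values were 1564 and 1066.

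By chromosome arm the genes with a peak numbered 9 of 12 on 2L, 10 of 12 on 2R, 8 of 17 on 3L, 15 of 21 on 3R and 6 of 11 on X. The shares of other genes on these arms ran from 32.6% on 2L to 38.5% on X. With 11 to 21 genes on an arm, the counts are too small to compare the arms.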

How the data were processed

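Peak lists deposited by the authors were used, on dm6 per the labels. They were derived from alignments and a control library and compared by the irreproducible discovery rate (IDR), per the deposited entries; no source used here names the aligner or peak caller, and the control was not analysed here. The authors' deposited signal is the caller's enrichment value on an unstated scale, and the deposited score expresses the IDR in whole numbers with a top of 1000. A further 16 columns of the compared inputs were not used. No read counts were available, so depth is unknown. Summits on the chromosome arms were assigned to every protein-coding gene with a TSS within 500 bp (Ensembl release 115, BDGP 6.54), and the strongest counted. Sequences came from the RefSeq genome of the same build, and motifs were matched without mismatch on both strands. Shares have 95% Wilson intervals; percentiles are mean and SD over 2 replicates. Replicates were not tested against each other, and p-values were not computed. The tools were Python 3.11.15, numpy 2.4.6, scipy 1.17.1 and matplotlib 3.10.9, and scripts were tested on simulated data. The alternatives tried were a smaller conservative set, single replicates, the stronger peaks, other TSS windows, nearest TSS, gene record starts and other motif windows.

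Members, lists and tests were chosen with earlier results of these data known. Named were the 12 genes with the highest main-set signal, all without a peak, all called in a single replicate, the 6 strongest with a nearer neighbour, and per related list the 3 strongest and up to 3 without a peak in alphabetical order. The names mEFG2, mtRF1, mtRF1a and 10 names of the RNA and assembly list matched no symbol and were left out.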

Additional observations from a re-analysis of the deposited data

How the results depend on the processing

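The share of mitochondrial ribosomal protein genes with a TSS peak stayed above that of other genes under each of the 8 alternatives run, by 7.85 to 33.1 percentage points. The smallest difference came from the nearest TSS only, where the interval of 25.6 to 47.1 held the 27.8% of other genes. The count of 48 fell to 26 when each summit went to its nearest TSS only, with 16 in the large and 10 in the small subunit; it ranged from 36 to 41 with either replicate left out, and large subunit genes fell to 19 when the stronger peaks alone were kept. The median percentile ranged from 41.7 to 48.6 with either replicate left out and was 44.4 with the stronger peaks alone. The share of other genes was 29.8% in the conservative set, from 28.0% to 29.5% with either replicate left out, 23.6% with the stronger peaks alone, 29.96% at 250 bp, 39.5% at 1000 bp, 27.8% by nearest TSS and 32.7% from gene record starts. Within 50 bp of the summit in place of 100 bp, DREF lay at 3, the BEAF-32 core at 14, the Myc E-box CACGTG at 1, the E-box at 5, GAGAG at 1 and TATAAA at 6 of the 48, and within 150 bp Motif 1 at 7. No paired analysis was possible because the series holds a single group. The lack of read counts and of the control library limits what a missing peak can show.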
